A study of Mus musculus with 20 samples.

Results

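Most histone genes fell in primary mouse embryo fibroblasts from 48 h after treatment, whether or not the cells carried the floxed Ubf gene, and none of those tested passed the test for a change with time in the immortalised lines. The genes described here are those whose single symbol begins with a histone prefix (H1f, H2ac, H2bc, H3c, H3f, H4c or H4f before a digit, H2ax, H2az, and the older names Hist1h to Hist4h). There were 35 of them among 19938 genes with a symbol of their own, and each was read from its brightest probe set. They comprise 8 linker H1 genes, 7 H2A, 9 H2B, 4 H3 and 7 H4 genes. By class, 25 were replication-dependent genes of the histone clusters, 5 were replacement genes (H1f10, H2ax, H2az1, H2az2 and H3f3a) and 5 were germline genes (H1f6, H1f7, H1f8, H2ac1 and H2bc1). In the RefSeq annotation 23 of the 35 lie on chromosome 13, 5 on chromosome 3 and 3 on chromosome 6. A filter on low values, which asked for a level past the 40th percentile of the array on 2 arrays or more, kept 33 members and 15272 genes in all. The germline gene H1f8 (5.50 to 6.10 on the log2 scale over the 20 arrays) and the replication-dependent gene H3c7 (3.97 to 4.93) did not pass and were not tested.

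Core histones form the protein spool of the nucleosome, H2A, H2B, H3 and H4 together, and linker H1 binds where the DNA enters and leaves it. Replication-dependent histone genes lie in clusters, lack introns and give an mRNA that ends in a stem-loop in place of a poly(A) tail. This mRNA is made when DNA is copied and is destroyed when copying stops. Replacement histones are mostly made from polyadenylated mRNA throughout the cell cycle and can enter chromatin outside S phase.

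The arrays measured RNA from 4 fibroblast lines. Embryo fibroblasts (MEFs) came from E14.5 embryos, homozygous for either the floxed gene (Ubf fl/fl) or the wild-type gene (Ubf wt/wt), and the immortalised lines (iMEFs) of both genotypes carried SV40 T antigens introduced by transfection. UBF is a factor of ribosomal RNA transcription by RNA polymerase I. Every line was Er-cre+/+, which means that the controls carried the inducible recombinase too. The treatment of all lines was 50 nM 4-hydroxytamoxifen (4-HT) for 4 h, with harvests at 0, 24, 48, 72 or 96 h post 4-HT (pHT). The labels do not say whether the 0 h cells had received 4-HT, and the paper describes 0 h as before Ubf recombination. Each line was measured once at each time. There were no arrays of untreated cells over the same times, so that time in culture, the medium change and 4-HT itself cannot be told apart. Times of a line served as repeats, 0 and 24 h as early and 48, 72 and 96 h as late. The errors below are therefore scatter between harvest times and not between embryos or cultures, and the number of arrays limits the precision.

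Values are log2 levels after RMA normalisation, and a difference of 1 is a 2-fold change. A level refers to all RNA of a culture, so that fewer cells of a kind and less RNA per cell cannot be told apart. Histone genes of a family are nearly alike in sequence, and 32 probe sets with several symbols, a histone among them, were left out of the members. Cross-hybridisation between copies was not tested, and a value for 1 replication-dependent gene may hold signal of its relatives. The highest value on an array was between 14.06 and 14.26, and levels close to it have little room to rise. Of the defining fibroblast markers, 10 of 10 were over the 40th percentile on every MEF array and 8 to 9 of 10 on every iMEF array. Macrophage markers were also present in the primary cells, 16 to 17 of 17 over that percentile on each MEF array. On the iMEF arrays 7 to 12 of 17 were over it. The mean level of these markers was between 8.55 and 10.08 in MEFs against 6.16 to 6.60 in iMEFs. Transcripts of the targeted gene, Ubtf, were between 9.49 and 10.75 on all 20 arrays and showed no late effect of the floxed genotype by limma (0.13 ± 0.18 SE, adjusted p = 0.70 in iMEFs and 0.36 ± 0.18 SE, adjusted p = 0.72 in MEFs). The exons that the probes cover are not given in the sources used here, which means that this level does not check the genotype labels.

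Promoters of 9 members are shown because histone genes of a family share short elements close to the start site and because these members carry the results below. Each is the stretch of 150 bases before the RefSeq start site in GRCm38.p6, read along the strand of the gene. Capitals mark exact matches to the octamer ATTTGCAT of H2B promoters, which the factor Oct-1 (Pou2f1) binds, to CCAAT, to TATAAA, to AAACACA, the element of H1 promoters, and to GGTCCG, the core of the H4 element that Hinfp binds. All were searched on both strands apart from TATAAA, which was searched along the gene only.
H2bc3, chr13:23746584-23746733, plus strand: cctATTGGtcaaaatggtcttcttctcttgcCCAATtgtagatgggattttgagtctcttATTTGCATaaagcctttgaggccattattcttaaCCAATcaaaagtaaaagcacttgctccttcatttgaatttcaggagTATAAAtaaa
H2bc14, chr13:21721894-21722043, plus strand: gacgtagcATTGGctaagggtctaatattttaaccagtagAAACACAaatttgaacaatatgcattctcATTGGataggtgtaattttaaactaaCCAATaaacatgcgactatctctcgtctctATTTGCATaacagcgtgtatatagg
H2bc18, chr3:96269550-96269699, plus strand: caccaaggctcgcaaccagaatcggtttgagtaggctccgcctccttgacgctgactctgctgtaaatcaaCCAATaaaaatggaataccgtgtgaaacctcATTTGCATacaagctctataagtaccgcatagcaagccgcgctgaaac
H2ac4, chr13:23750938-23751087, plus strand: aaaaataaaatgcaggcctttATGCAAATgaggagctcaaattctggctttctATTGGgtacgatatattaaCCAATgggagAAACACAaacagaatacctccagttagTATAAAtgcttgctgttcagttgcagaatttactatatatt
H1f5, chr13:21780626-21780775, minus strand: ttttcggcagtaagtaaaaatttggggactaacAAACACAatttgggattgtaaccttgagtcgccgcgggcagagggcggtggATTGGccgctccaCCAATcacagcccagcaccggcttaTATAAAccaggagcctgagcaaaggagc
H1f2, chr13:23738657-23738806, plus strand: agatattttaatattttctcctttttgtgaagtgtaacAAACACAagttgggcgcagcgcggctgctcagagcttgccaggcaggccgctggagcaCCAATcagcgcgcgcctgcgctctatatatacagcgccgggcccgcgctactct
H4c6, chr13:23551669-23551818, minus strand: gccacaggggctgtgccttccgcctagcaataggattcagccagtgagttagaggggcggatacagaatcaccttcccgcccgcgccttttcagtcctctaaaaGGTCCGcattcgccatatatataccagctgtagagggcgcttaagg
H4f16, chr6:136804432-136804581, minus strand: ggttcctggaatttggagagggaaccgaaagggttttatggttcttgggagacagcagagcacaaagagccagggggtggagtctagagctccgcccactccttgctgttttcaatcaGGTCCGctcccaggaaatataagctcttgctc
H2az1, chr3:137864337-137864486, plus strand: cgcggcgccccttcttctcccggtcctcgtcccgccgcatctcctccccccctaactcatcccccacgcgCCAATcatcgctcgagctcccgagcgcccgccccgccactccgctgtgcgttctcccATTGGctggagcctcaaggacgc
H2bc3, H2bc14, H2bc18 and H2ac4 are shown as members with large falls in MEFs, H1f5 beside H1f2 because the first fell and the second rose in floxed MEFs, H4c6 and H4f16 for the H4 family, and H2az1 for the replacement genes. A window of 300 bases (250 before and 50 after the start) was found for 30 of the 35 members. The octamer occurred in 8 of the 30 windows against 1.74% of the windows of all 32851 promoters. The windows of H2ac8 and H2bc8 overlap, as do those of H2ac1 and H2bc1. Each pair shares 1 octamer, which was counted in both windows. By family the octamer was in 5 of 7 H2B windows and 3 of 6 H2A windows, and it was in 0 of 4 windows of replacement genes. It was present for H2bc8 and H2ac8, which passed the test for a change with time in neither MEF line. H2ac8 was under the percentile of the filter on low values on every MEF array, so that its test there cannot decide whether it fell. The octamer was absent for H2ac15 and H2bc9, which fell in both MEF lines. A relation between the octamer and the falls was not tested. AAACACA occurred in 9 of 30 windows, against 7.18% of all windows, and was not confined to H1 genes. By family it was in 4 of 8 H1 windows, those of H1f2, H1f3, H1f5 and H1f6. It was also in 2 of 6 H2A, 2 of 7 H2B, 1 of 3 H3 and 0 of 6 H4 windows. The overlapping windows of H2ac1 and H2bc1 share 1 of these matches, which was counted in both. GGTCCG was in 9 of 30 windows, with 6 of 6 H4 windows among them, against 8.25% of all. CCAAT was in 24 of 30 windows against 37.4% and TATAAA in 13 of 30 against 8.32%. These matches describe the letters in a window and do not show that a factor binds there.

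The question of the first comparison was how histone mRNA changed between the early and the late times in each line. In primary MEFs with the floxed gene 21 of 33 members fell and 2 rose (limma, adjusted p under 0.05), against 3.64% and 2.7% of all genes tested, 6.34% in either direction. In wild-type MEFs 20 of 33 fell and 0 rose, against 3.01% and 1.42% of all genes (4.43% in either direction), with 1 member higher at an unadjusted p under 0.05 against 8.33% of all genes. All 20 that fell in wild-type cells were among the 21 that fell in floxed cells. The remaining gene was the testis H2A gene H2ac1, which fell by 0.80 ± 0.17 SE (adjusted p = 0.0055; 0.069 without the 0 h array of this line and 0.063 without its 24 h array) in floxed cells and differed by -0.39 ± 0.17 SE (adjusted p = 0.21) in wild-type cells. Genes of both the replication-dependent and the replacement class fell. Of the 24 replication-dependent genes 15 fell in each MEF line, with a median change of -1.22 in floxed and -0.99 in wild-type cells. Of the 5 replacement genes 4 fell in each, with medians of -1.31 and -0.97. The median over all genes was 0.03 and -0.04. The calls in wild-type MEFs numbered 8 without their 0 h array and 12 without the 72 h arrays. Under 30 alternatives H2az2, H4c8 and H4c9 kept their calls there in 25, and H2bc1 and H4f16 in 24. Levels at the 3 late times were all below both early levels for 23 members in floxed MEFs and for 24 in wild-type MEFs, against 17% and 23.7% of all genes, and all above both for 3 members and 1 member, against 20.2% and 17.1%.

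**Figure D1:**
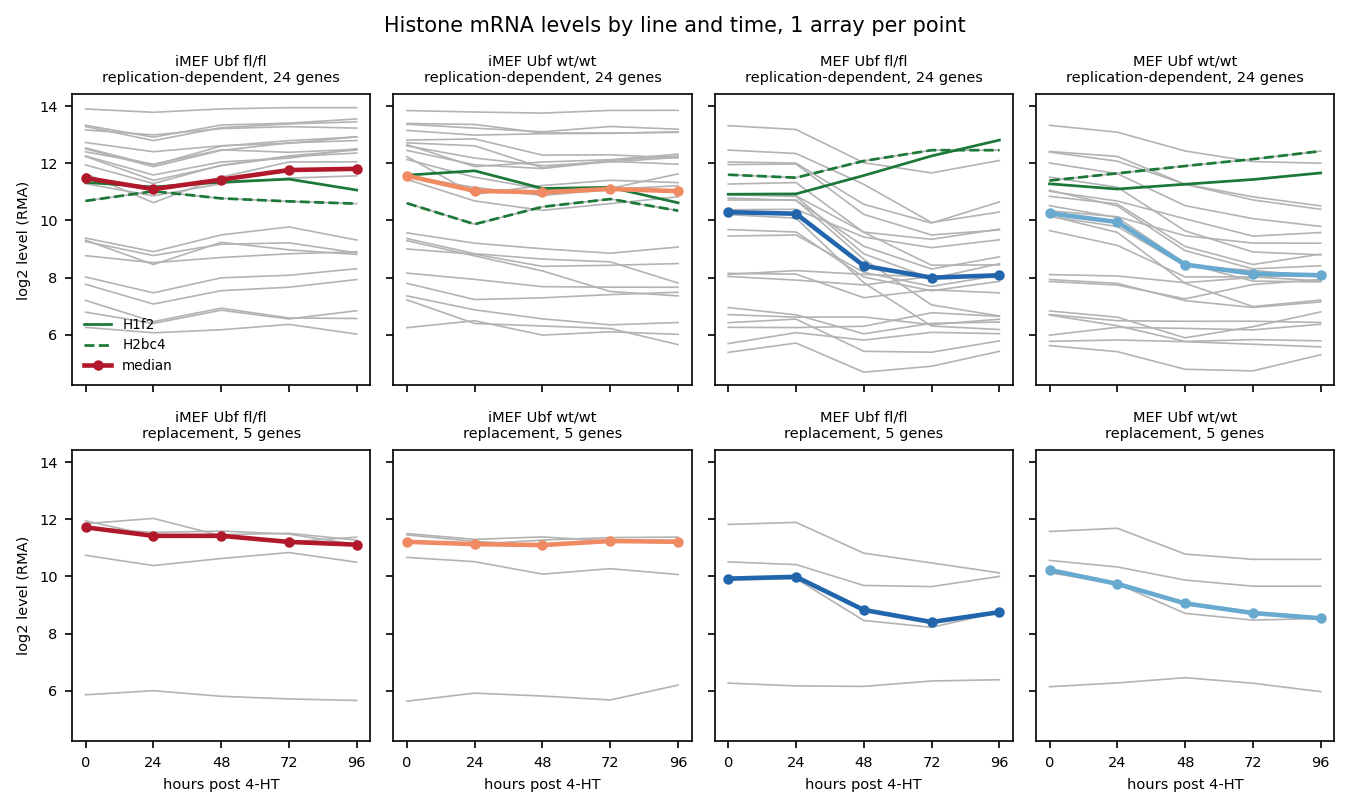
Log2 levels (vertical axes) against hours post 4-HT (horizontal axes) in the 4 lines, for the 24 replication-dependent genes and the 5 replacement genes tested; grey lines are single genes on 1 array per time, the coloured line is their median, and green lines are H1f2 (solid) and H2bc4 (dashed). The replication-dependent median of floxed MEFs went from 10.29 and 10.24 at 0 and 24 h to 8.41 at 48 h and 8.08 at 96 h, while that of floxed iMEFs stayed between 11.10 and 11.81.

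H2A and H2B pair up in the nucleosome, and the genes of both lie next to each other in the clusters. The H2A gene H2ac4 stood at 10.21 and 10.08 at 0 and 24 h in floxed MEFs and at 7.82, 6.30 and 6.18 at 48, 72 and 96 h. In wild-type MEFs the same gene went from 10.16 and 9.58 to 7.80, 6.99 and 7.21. Every late array was below every early array in both lines, and the 72 and 96 h levels were lower in floxed cells. The 96 h level in floxed cells was under the 40th percentile of its array, and with that level raised to the percentile the fall was 10.2-fold. As measured, H2ac4 fell 10.4-fold in floxed MEFs (-3.37 ± 0.43 SE, adjusted p = 5.69e-05) and 5.81-fold in wild-type MEFs (-2.54 ± 0.43 SE, adjusted p = 0.00195). In iMEFs it lay between 11.40 and 12.36 with the floxed gene and between 10.92 and 12.24 without it, and early and late levels overlapped in both.

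The H2B gene H2bc3 had a like course. It stood at 10.72, 10.71, 8.64, 7.04 and 6.66 from 0 to 96 h in floxed MEFs and at 10.52, 10.10, 8.50, 7.88 and 7.85 in wild-type MEFs, a 9.63-fold fall (-3.27 ± 0.40 SE, adjusted p = 4.76e-05) and a 4.70-fold fall (-2.23 ± 0.40 SE, adjusted p = 0.00383). H2bc14 went from 11.96 and 11.98 to 10.21, 9.49 and 9.67 in floxed MEFs and from 12.01 and 11.64 to 10.52, 10.06 and 9.79 in wild-type MEFs. Its early and late levels did not overlap in either line. The falls were -2.18 ± 0.21 SE (adjusted p = 5.32e-06) and -1.70 ± 0.21 SE (adjusted p = 0.000216). H2bc18 fell 3.56-fold and 3.32-fold, H2bc9 2.54-fold and 2.23-fold, and H2ac15 3.75-fold and 2.90-fold. Some H2A and H2B genes did not pass. H2bc8, H2bc21 and H2bc22 had changes between -0.15 and 0.10 in floxed MEFs and passed the test in neither MEF line, nor did H2ac8 (-0.54 ± 0.29 SE and -0.57 ± 0.29 SE). H2ac8 and H2bc21 were under the percentile of the filter on low values on every MEF array. Their tests in MEFs therefore cannot decide whether they fell. In counts, 2 of 3 replication-dependent H2A genes and 4 of 8 H2B genes fell in each MEF line, with H2ac8 and H2bc21 among the remainder.

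H2bc4 went the other way. Its level was 11.60, 11.50, 12.08, 12.46 and 12.46 from 0 to 96 h in floxed MEFs and 11.40, 11.65, 11.91, 12.15 and 12.43 in wild-type MEFs, with every late array above both early arrays in each line. It rose by 0.79 ± 0.21 SE (adjusted p = 0.0279) in floxed MEFs, a call that was lost without any 1 of the 0, 24, 72 and 96 h arrays of this line (adjusted p between 0.083 and 0.22), and the difference of 0.64 ± 0.21 SE in wild-type MEFs did not pass (adjusted p = 0.0939). The octamer was not looked for in this gene because its window was not found.

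Linker H1 genes were split. H1f1, a replication-dependent H1, stood at 10.91, 10.84, 8.83, 7.97 and 8.48 in floxed MEFs and at 11.06, 10.51, 8.94, 8.31 and 8.41 in wild-type MEFs. H1f5 stood at 11.28, 11.33, 9.59, 8.43 and 8.45 and at 11.51, 11.17, 9.64, 8.90 and 8.80. Both genes separated the early from the late arrays in each line. H1f1 fell 5.45-fold and 4.69-fold (adjusted p = 5.13e-06 and 5.92e-05), and H1f5 fell 5.58-fold and 4.69-fold (adjusted p = 2.14e-05 and 0.000223). H1f2, whose promoter carries the same AAACACA element as that of H1f5, stood at 10.92 and 10.93 at 0 and 24 h in floxed MEFs and at 11.57, 12.26 and 12.81 afterwards. In wild-type MEFs it was at 11.28, 11.10, 11.27, 11.43 and 11.66, where the 48 h level was below that at 0 h. It rose 2.45-fold in floxed MEFs (1.29 ± 0.25 SE, adjusted p = 0.00355) and differed by 0.26 ± 0.25 SE in wild-type MEFs (adjusted p = 0.656). Without the floxed 0 h array of MEFs the adjusted p of this rise was 0.052, and without the 24 h arrays it was 0.10. H1f3 passed in neither line (0.32 ± 0.18 SE and 0.13 ± 0.18 SE). The germline genes H1f6 and H1f7 did not pass either.

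**Figure D2:**
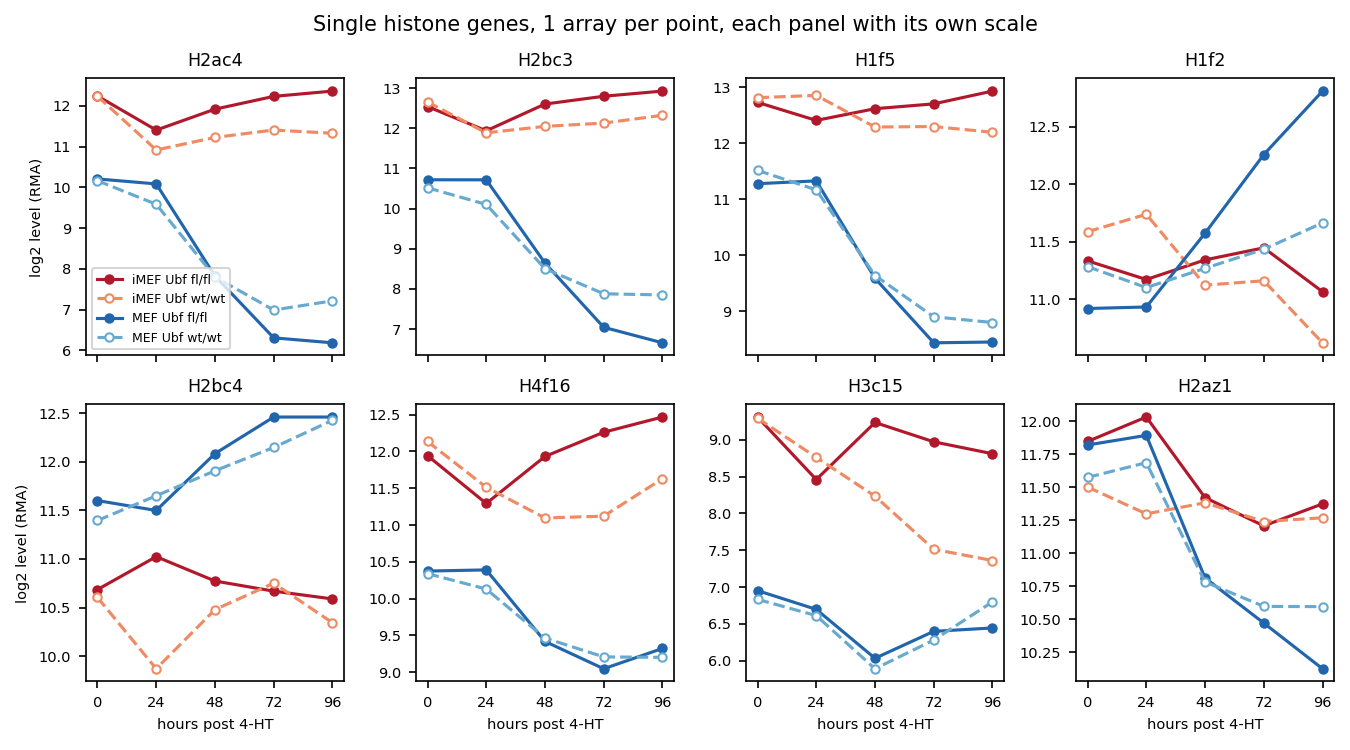
Log2 level (vertical axes) against hours post 4-HT (horizontal axes) of 8 histone genes, with 1 array for each point; floxed lines are solid with filled points, wild-type lines dashed with open points, and colours separate iMEFs from MEFs. H2ac4, H2bc3 and H1f5 drop in both MEF lines from 48 h, whereas H1f2 reaches 12.81 in floxed MEFs at 96 h against 11.66 in wild-type MEFs.

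In the H4 family 7 of 7 genes fell in each MEF line. Changes ran from -2.04 to -0.69 in floxed MEFs and from -1.92 to -0.71 in wild-type MEFs. The levels of H4c8 were under the 40th percentile on all 3 late arrays of each line, which limits the size of its fall. H4c6 stood at 10.78, 10.70, 9.10, 8.30 and 8.72 in floxed MEFs and at 10.85, 10.58, 9.09, 8.46 and 8.82 in wild-type MEFs, so that both lines dropped between 24 and 72 h and were higher again at 96 h. It fell 4.10-fold (adjusted p = 2.24e-05) and 3.79-fold (adjusted p = 0.000179). H4c4 started at 13.32 in floxed and 13.33 in wild-type MEFs and was at 12.10 and 12.01 at 96 h, a change of -1.32 ± 0.15 SE (adjusted p = 1.63e-05) and -1.04 ± 0.15 SE (adjusted p = 0.000418). In iMEFs H4c4 was between 13.76 and 13.95 on all arrays, close to the highest value of an array. H4f16, which lies on chromosome 6, outside the large cluster, went from 10.38 and 10.39 to 9.42, 9.05 and 9.32 in floxed MEFs and from 10.34 and 10.13 to 9.47, 9.21 and 9.20 in wild-type MEFs (adjusted p = 0.00438 and 0.0239).

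The H3 genes read alone by a probe set did not pass the test for a change with time in any line. H3c4 was at 8.11, 8.25, 8.11 and 8.03 from 0 to 72 h in floxed MEFs, the 96 h level being the lowest, and was between 7.82 and 8.12 in wild-type MEFs, with changes of -0.13 ± 0.12 SE and -0.10 ± 0.12 SE. H3c15 was at 6.95 and 6.70 at 0 and 24 h in floxed MEFs and at 6.03, 6.40 and 6.45 later, and the change of -0.53 ± 0.29 SE did not pass (adjusted p = 0.413). Other copies of H3 share their probe sets and are no members. The 10 sets of several H3 symbols, which were not tested, were lower at the late times in MEFs. Their changes were -1.88 to -1.78 in floxed and -1.27 to -1.13 in wild-type MEFs, as given at the end. The replacement gene H3f3a, which encodes H3.3, was between 5.63 and 6.45 on all 20 arrays and changed by 0.07 ± 0.16 SE (adjusted p = 0.926) and 0.02 ± 0.16 SE (adjusted p = 0.97). These values are of the 1 probe set that lists H3f3a alone and do not give the level of H3.3 mRNA as a whole. No probe set listed H3f3b alone, so that it is no member. Sets that list H3f3a or H3f3b with another symbol had early levels between 9.81 and 12.19 and are given at the end.

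Of the replacement genes, H2az1 encodes the variant H2A.Z.1 found at promoters, H2ax encodes the variant that is phosphorylated at DNA breaks, and H1f10 encodes H1.10 (H1X). H2az1 stood at 11.82 and 11.89 at 0 and 24 h and at 10.81, 10.47 and 10.13 afterwards in floxed MEFs. In wild-type MEFs it stood at 11.57, 11.69, 10.78, 10.60 and 10.60. Early and late arrays were separate in both. It fell 2.61-fold (adjusted p = 2.14e-05) and 1.96-fold (adjusted p = 0.00147). H2az1 was the 1 member with several probe sets, 2 in all, and these values are of the brighter set. Over 30 alternatives, the mean of probe sets among them, its change was -1.56 to -1.21 in floxed and -1.03 to -0.92 in wild-type MEFs. H2ax went from 9.92 and 9.99 to 8.83, 8.40 and 8.71 in floxed MEFs and from 10.13 and 9.74 to 8.71, 8.47 and 8.53 in wild-type MEFs. It fell 2.47-fold and 2.58-fold. H1f10 fell 2.68-fold and 2.31-fold, and H2az2, which encodes H2A.Z.2, fell 1.61-fold and 1.64-fold. Both germline genes of the divergent H2A and H2B testis locus were measured, and H2bc1 fell 2.30-fold and 1.76-fold beside the values of H2ac1 above.

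**Figure D3:**
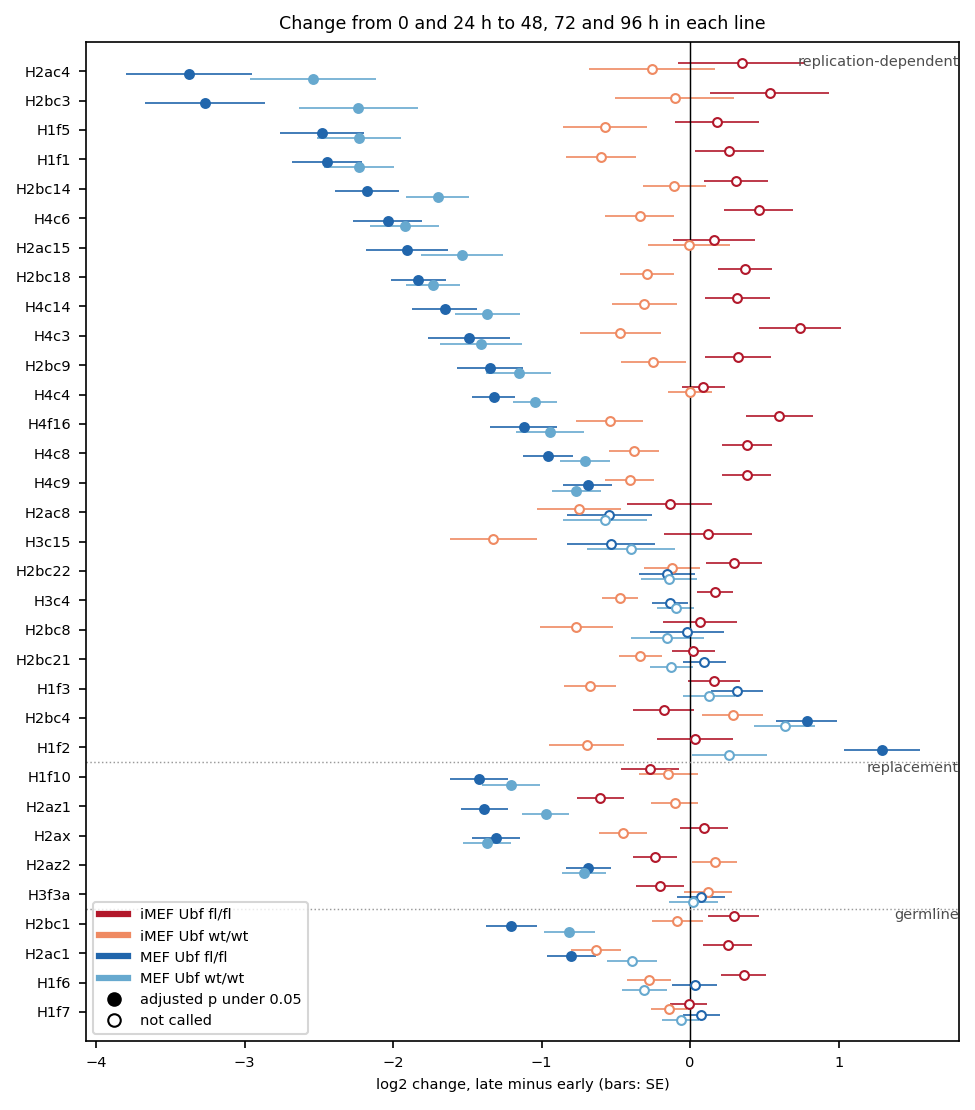
Late minus early change on the log2 scale (horizontal axes, with SE as bars) of the 33 histone genes tested in each of the 4 lines; filled points passed the adjusted p of 0.05 by limma and open points did not. Filled points are found in the MEF lines, with 23 in floxed and 20 in wild-type cells, and none are found in the iMEF lines.

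In iMEFs the same test called 0 of 33 members in either line, where 1.89% of all genes passed in the floxed line (0.923% higher and 0.963% lower) and 0.151% in the wild-type line (0.138% higher and 0.0131% lower). Without their 0 h array 4 members passed in floxed iMEFs and without their 48 h array 3, and in wild-type iMEFs 1 passed without their 48 h array. The share of all genes that passed in these fits without an array is not given. At an unadjusted p under 0.05 in the fit of all arrays, 5 members were higher and 1 lower in floxed iMEFs, against 7.94% and 17.1% of all genes. In wild-type iMEFs 13 were lower and 0 higher, against 4.09% and 6.19% of all genes. The median change of the replication-dependent genes was 0.28 in floxed iMEFs, with 22 of 24 positive, and -0.36 in wild-type iMEFs, with 22 of 24 negative. The lowest adjusted p was 0.0567 for H2az1 in floxed iMEFs, which stood at 11.85 and 12.03 at 0 and 24 h and at 11.42, 11.21 and 11.37 later. In wild-type iMEFs it was 0.0825 for H3c15, which stood at 9.29, 8.76, 8.23, 7.51 and 7.36. Late levels were all below the early ones for 2 members in the floxed line and 15 in the wild-type line, against 20.8% and 13.1% of all genes. They were all above them for 7 members and 1 member, against 13.6% and 15.7%.

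The difference between the cell types was tested in the same model, as the mean change of the MEF lines minus that of the iMEF lines. It was lower in MEFs for 20 of 33 members and higher for 1, against 2.32% and 1.03% of all genes and 3.35% in either direction. The median difference was -1.15 over the replication-dependent genes and -0.82 over the replacement genes, against 0.00 over all genes. Differences were between -3.00 for H2ac4 and -0.67 for H2az2 among the 20. H1f2 was the gene with a higher change in MEFs (1.11, adjusted p = 0.0203), which did not pass without the floxed 0 h array or the wild-type 24 h array of MEFs or the wild-type 24 h array of iMEFs (adjusted p between 0.054 and 0.066). Its call was kept in 25 of 30 alternatives, and the highest adjusted p among them by limma was 0.326. Without all 24 h arrays 11 members passed and without all 72 h arrays 12. For H2bc4 the difference of 0.66 ± 0.21 SE did not pass (adjusted p = 0.096).

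Genes that act with histones in S phase were set beside them. Of 34 S phase genes tested, 32 fell in floxed MEFs (median -1.62) and 22 in wild-type MEFs (median -1.08), against 3.64% and 3.01% of all genes. In each iMEF line 0 passed. At an unadjusted p under 0.05, 12 were lower in floxed iMEFs and 1 higher in wild-type iMEFs, against 17.1% and 6.19% of all genes. Mcm5, a subunit of the replicative helicase, changed by -2.79 ± 0.27 SE and -2.16 ± 0.27 SE in the MEF lines, and Tk1, thymidine kinase, by -2.31 ± 0.27 SE and -1.96 ± 0.27 SE. Of the chaperones that carry histones to DNA 7 of 21 fell in floxed MEFs and 4 in wild-type MEFs, against the same 3.64% and 3.01% of all genes. The 4 were Asf1b (-2.68 and -1.95), Chaf1b (-1.87 and -1.47), Chaf1a (-1.25 and -1.11) and Tonsl (-0.98 and -1.13), of which Chaf1a and Chaf1b are subunits of the assembly factor CAF-1. Among 6 other histone variants Cenpa, the H3 variant of centromeres, fell in both (-2.59 ± 0.33 SE and -1.71 ± 0.33 SE). Of the factors that make or process replication-dependent histone mRNA 0 of 15 passed in any line. Their median change was -0.32 in floxed MEFs, with 13 of 15 negative, and -0.22 in wild-type MEFs, with 11 of 15 negative. At an unadjusted p under 0.05 there were 5 lower in floxed MEFs and 2 in wild-type MEFs, against 8.19% and 10.7% of all genes. Slbp, which binds the stem-loop, had changes of -0.62 ± 0.22 SE and -0.31 ± 0.22 SE, and Npat, the coactivator of the clusters, had -0.32 ± 0.34 SE and 0.23 ± 0.34 SE. Of 17 macrophage markers 1 rose in floxed MEFs (median 0.13) and 2 fell in wild-type MEFs (median -0.48), against 2.7% and 3.01% of all genes. The part of cell division in these values was not tested.

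**Figure D4:**
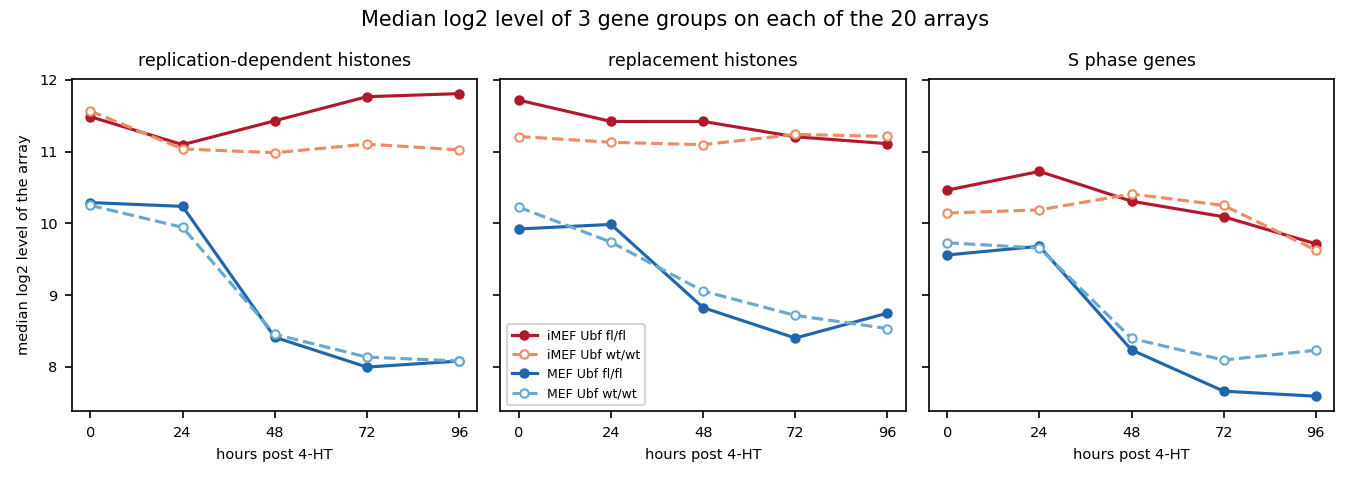
Median log2 level on each array (vertical axes) of the replication-dependent histone genes, the replacement histone genes and the S phase genes against hours post 4-HT (horizontal axes) in the 4 lines. All 3 medians drop between 24 and 48 h in both MEF lines, for the S phase genes from 9.68 to 8.24 in floxed and from 9.66 to 8.40 in wild-type cells.

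The second comparison was between the cell types themselves, over the mean of each line and with 2 lines per type. In iMEFs 29 of 33 members were higher and 2 lower than in MEFs, against 35.1% and 31.2% of all genes, so that 66.3% of all genes differed. Of these members, H2ac8 and H2bc21 passed the filter on low values only through iMEF arrays and H3f3a only through MEF arrays, so that they had to differ in this direction. Of the 30 that were over the percentile on arrays of both cell types, 27 were higher and 1 lower, with a median of 1.98 over the 22 replication-dependent genes among them. The replication-dependent genes had a median difference of 1.93 and the replacement genes of 1.33, against 0.12 over all genes. H2bc3 was 11.5-fold higher in iMEFs (3.52 ± 0.16 SE, adjusted p = 0.000656), H2ac4 11.3-fold (3.49 ± 0.22 SE, adjusted p = 0.000844), H1f1 7.46-fold and H4c6 6.93-fold. H1f10 was 4.72-fold higher, H2ax 2.51-fold and H2az2 2.54-fold. H2bc4 was lower in iMEFs (-1.38 ± 0.14 SE, adjusted p = 0.00171), with 9.87 to 11.02 on the iMEF arrays and 11.40 to 12.46 on the MEF arrays. The probe set that lists H3f3a alone was at or under the percentile on every iMEF array and over it on 6 MEF arrays (difference -0.41 ± 0.08 SE). H1f2 and the germline gene H1f7 did not pass (-0.27 ± 0.14 SE and 0.18 ± 0.10 SE). The size depends on the times, since the median of the replication-dependent genes was 1.28 with the early arrays alone and 2.36 with the late arrays alone. H2az1 was 1.34-fold higher over all times (0.42 ± 0.11 SE, adjusted p = 0.0252) and had a difference of -0.07 at 0 and 24 h. Other cell markers moved with the cell type as well. All 17 macrophage markers were lower in iMEFs (median -2.76), as were 9 of 10 fibroblast markers (median -1.47), and 27 of 34 S phase genes were higher (median 1.20). The part of macrophages among the primary cells in these differences was not tested, and T antigens and immortalisation cannot be told apart.

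The third comparison asked for an effect of the floxed genotype, as the difference between floxed and wild-type cells at 48 to 96 h minus the same difference at 0 and 24 h. Each genotype had 1 line per cell type, so that the genotype and a course over time particular to a line cannot be told apart. In iMEFs this late effect passed as positive for 2 of 33 members and as negative for 0, against 0.183% and 0.0393% of all genes. In either direction 0.223% of all genes passed. At an unadjusted p under 0.05 the effect was negative for 1 member, against 15.5% of all genes. H3c15 stood at 9.31, 8.46, 9.23, 8.97 and 8.81 from 0 to 96 h in floxed iMEFs and at 9.29, 8.76, 8.23, 7.51 and 7.36 in wild-type iMEFs. H4f16 stood at 11.94, 11.29, 11.93, 12.26 and 12.47 in floxed iMEFs and at 12.14, 11.51, 11.10, 11.12 and 11.63 in wild-type iMEFs. In both genes the lines were close at 0 and 24 h, and the floxed line was higher at each of the 3 late times. The late effect was 1.45 ± 0.21 SE for H3c15 (2.72-fold, adjusted p = 0.0338) and 2.21-fold for H4f16 (SE 0.17 on the log2 scale, adjusted p = 0.0338). Both calls depended on single arrays and settings, and they remained in 14 (H3c15) and 15 (H4f16) of 31 alternatives. For the fits without single arrays that follow, the share of all genes that passed is not given. Their counts describe only how stable these calls were. Leaving out 1 of the 24, 48 or 72 h arrays of either iMEF line, or 1 of the 0, 24 or 72 h arrays of either MEF line, left 0 members past the threshold. Without a 96 h array of iMEFs 1 member passed, without a 0 h array of iMEFs 4 did, and without a 96 h array of MEFs 12 did.

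Replication-dependent genes shared the direction. The late effect in iMEFs was positive for 23 of 24 of them, with a median of 0.65 against -0.04 over all genes, and at an unadjusted p under 0.05 21 of 33 members were higher and 1 lower, against 6.53% and 15.5% of all genes. Relative to 0 h the median difference between the lines was -0.12 at 24 h and 0.58, 0.58 and 0.70 at 48, 72 and 96 h. It was positive at all 3 late times for 22 of 24 genes, against 20.6% of all genes. Of the 5 replacement genes 4 were negative at all 3, against 33.1% of all genes. H4c3 had a late effect of 1.21 ± 0.22 SE and H4c6 of 0.80 ± 0.15 SE, both with an adjusted p of 0.0583. In H4c6 both lines contributed, with 12.45, 12.72 and 12.80 late against 12.51 and 11.88 early in floxed cells and 11.92, 12.05 and 12.21 against 12.61 and 12.19 in wild-type cells. The exception was H2bc4 (-0.47 ± 0.28 SE). The replacement genes had a median of -0.33, with 4 of 5 negative, and none passed. H2az1 had -0.50 ± 0.19 SE (adjusted p = 0.166). The difference between the classes was not tested. Of 34 S phase genes 31 were negative (median -0.44), against 8192 of all 15272 genes. Among them 0 passed and 9 were lower at an unadjusted p under 0.05, against 15.5% of all genes.

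In MEFs the late effect of the floxed genotype passed for 0 of 33 members, and 0% of all genes passed. At an unadjusted p under 0.05, 1 member was higher and 5 were lower, against 3.96% and 2.93% of all genes, and 2 members passed when 1 of the 48 h arrays of MEFs was left out. The median over the replication-dependent genes was -0.12, against 0.06 over all genes. Relative to 0 h, 3 of the 24 were positive and 4 negative at all 3 late times, against 40.5% and 23.3% of all genes. H1f2 had the late effect of 1.03 ± 0.23 SE (adjusted p = 0.64), H2bc3 -1.03 ± 0.32 SE (adjusted p = 0.70) and H2ac4 -0.84 ± 0.29 SE (adjusted p = 0.71). The difference of the late effect between iMEFs and MEFs passed for 0 members and for 0% of all genes, with 19 members positive at an unadjusted p under 0.05 and 0 negative, against 1.98% and 5.46% of all genes. It was 1.32 ± 0.24 SE for H4f16 (adjusted p = 0.413) and 1.58 ± 0.30 SE for H3c15 (adjusted p = 0.43). The median difference over the replication-dependent genes was 0.76. A difference between the cell types in the effect of the genotype was therefore not shown. Of the S phase genes 32 of 34 had a negative late effect in MEFs (median -0.47), against 6233 of all 15272 genes. Among them 0 passed and 15 were lower at an unadjusted p under 0.05, against 2.93% of all genes. Of the macrophage markers 15 of 17 had a positive late effect (median 0.65), against 9039 of all genes. Among these markers 0 passed and 6 were higher at an unadjusted p under 0.05, against 3.96% of all genes. The part of both lists in the values of the histone genes was not tested.

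**Figure D5:**
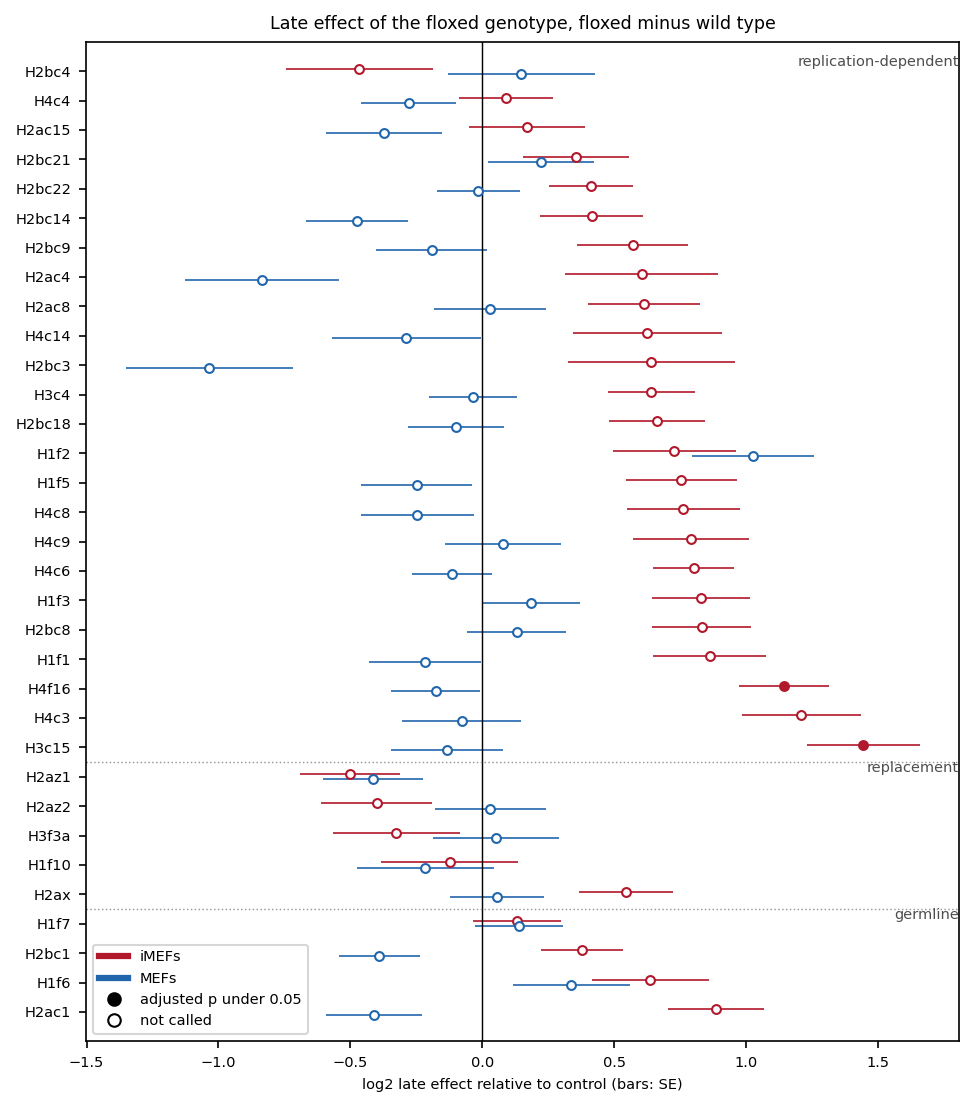
Late effect of the floxed genotype on the log2 scale (horizontal axis, with SE as bars) of the 33 histone genes tested, with red for iMEFs and blue for MEFs; a filled point passed the adjusted p of 0.05. In iMEFs 23 of 24 replication-dependent genes lie above 0, with a median of 0.65, and in MEFs 7 of 24 do, with a median of -0.12.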

How the data were processed

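RNA of 4 fibroblast lines at 5 times was hybridised to 20 one-colour Affymetrix arrays, 1 per line and time. The deposited values are log2 signals that the authors made with Affymetrix Power Tools 1.14.4 (RMA-sketch: background correction, quantile normalisation and summary per probe set, over all arrays), per the study's methods and the submitters' processing notes. The control and the 0 h values that the study subtracted are not subtracted in them. Quantile normalisation brings the arrays towards 1 distribution, which can hide a shift shared by all genes. The deposited values were not fully equal in distribution, with array medians over all probe sets between 6.75 and 6.93. The methods name the Mouse Gene 2.0 ST array, whereas the probe-set annotation used here is that of Gene 1.0 ST. Of 35556 probe sets 21789 had 1 symbol, 1621 several and 12146 none listed, and all columns were mapped to a sample.

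Of several probe sets of a gene, that of highest mean level was taken. Genes over the 40th percentile of the array on at least 2 arrays were kept, since detection p-values were not used here. Tests were made with limma 3.58.1 in R 4.3.3 (Benjamini-Hochberg over all genes kept, threshold 0.05). The late effect was fitted on all arrays with line, time within cell type and genotype by late time (6 residual df, median SE 0.21). The change with time was fitted on line by early or late (12 residual df, median SE 0.17), and the cell types were compared on 4 line means (2 residual df). Scripts were tested on simulated data. The p-values measure the spread between these arrays, and no source says that times of a line were separate cultures.

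Named genes were all members past the threshold in a test and, per family, the members with the highest mean levels. Members, lists and rules were chosen with earlier results of these data known. The difference of the change with time between cell types and the fits without single arrays were chosen after seeing the data. Alternatives were gene-median centring, quantile normalisation, no filter, the 60th percentile, the mean of probe sets, trend and robust empirical Bayes, fits without a time, each cell type alone, and a random block of line. Promoters and chromosomes are from RefSeq tables of GRCm38.p6, in which 35 of 35 member IDs were found. Figures were drawn with matplotlib 3.10.9 and pandas 2.3.3 in Python 3.11.15.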

Additional observations from a re-analysis of the deposited data

Results flagged for a closer look

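The change between early and late times differed between MEFs and iMEFs for 21 of 33 histone genes, by limma's test of the difference itself (adjusted p from 3.43e-05 to 0.0213). The values are the mean change of both MEF lines minus that of both iMEF lines on the log2 scale. Among the linker genes it was -2.17 for H1f1, -2.16 for H1f5 and -1.11 for H1f10, and H1f2 was the gene with the opposite sign (1.11). For the H2A genes the difference was -3 for H2ac4, -1.8 for H2ac15, -1.16 for H2ax, -0.82 for H2az1 and -0.67 for H2az2. For the H2B genes it was -2.97 for H2bc3, -2.04 for H2bc14, -1.82 for H2bc18, -1.29 for H2bc9 and -1.11 for H2bc1. For the H4 genes it was -2.04 for H4c6, -1.58 for H4c3, -1.51 for H4c14, -1.23 for H4c4, -1.06 for H4f16, -0.83 for H4c8 and -0.72 for H4c9. None of the 3 H3 genes tested was among them. Most copies of H3 share their probe sets, which were not tested and are given under the other observations. The late effect of the floxed genotype differed between the cell types for 0 of 33 genes by the same tool, with 19 at an unadjusted p under 0.05, all positive, against 1.98% of all genes in that direction.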

How the results depend on the processing

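The late effect set floxed against wild-type arrays of the same harvest times, with 1 array for each line and time. The labels give no replicate numbers, and no replicate block was fitted. The 23 calls in floxed MEFs, 21 falls and 2 rises, became 17 to 23 over the fits without 1 array, with a median of the replication-dependent genes between -1.28 and -1.10. For wild-type MEFs the 20 calls became 8 to 20 and the median -1.11 to -0.88, and without the 72 h arrays there were 12. The 21 differences in change with time were 18 to 21 without 1 array (median -1.24 to -1.01), 11 without the 24 h arrays and 12 without the 72 h arrays. In floxed iMEFs, where 0 passed, there were 0 to 4 calls without 1 array (median 0.039 to 0.53), 1 with the mean of probe sets, 3 without the 48 h arrays and 1 without the 96 h arrays, and the median without the 24 h arrays was 0.039. In wild-type iMEFs, where 0 passed, there were 0 to 1 (median -0.55 to -0.23), 1 without the 48 h arrays, and medians of -0.44 with centring on the gene median and -0.55 without the 24 h arrays. The comparison of iMEFs with MEFs called 29 to 31 without 1 array (median 1.84 to 2.03), and its median was 2.16 with centring, 1.28 at 0 and 24 h and 2.36 at 48 to 96 h. H2az1 reversed there, to -0.074 at 0 and 24 h. The late effect in iMEFs, 2 calls, was the least stable: 5 with centring, 6 with quantile normalisation, 4 with trend and robust empirical Bayes, 0 without the 24 h arrays, 1 without the 48 h arrays, 0 without the 72 h arrays, 11 without the 96 h arrays, 0 with each cell type fitted alone and 0 to 12 without 1 array. Its median was 0.63 to 0.73 without 1 array and 0.83 with centring, which moved the median of all genes from -0.04 to 0.14. Late effects in MEFs were 0 to 2 without 1 array (median -0.26 to -0.0085), with medians of -0.0085 without the 24 h arrays and -0.19 without the 96 h arrays. Of 3000 values of named genes under the alternatives, 2846 kept direction and side of the threshold, 153 kept the direction without passing and 1 reversed. For the alternatives the share of all genes that passed is not given, so that their counts describe only how stable the calls were. The causes of the differences between settings were not tested. Signal near the highest value of an array limits what can be seen of H4c4 in iMEFs.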

Other observations

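Other copies of H3 are read by probe sets that carry several histone symbols, which are no members. These sets are given as values with no test. The 10 sets of several H3 symbols had late minus early changes between -1.88 and -1.78 in floxed MEFs and between -1.27 and -1.13 in wild-type MEFs, and between 0.06 and 0.09 in floxed iMEFs and 0.01 and 0.05 in wild-type iMEFs. H3c4 and H3c15, the replication-dependent H3 genes read alone, had changes between -0.53 and -0.10 in the MEF lines, none of which passed. The early levels of the 10 sets in iMEFs were between 13.76 and 13.99, close to the highest value of an array, which leaves little room for a rise. The 7 sets of several H2B symbols changed by -1.40 to -0.96 in floxed and -1.07 to -0.76 in wild-type MEFs, and the 6 sets of several H4 symbols by -1.38 to -1.10 and -1.42 to -1.03. The sets that list H3f3a with other symbols, which encode H3.3, had changes between -0.03 and 0.03 in floxed MEFs and between 0.19 and 0.21 in wild-type MEFs. In iMEFs the same sets had changes between -0.49 and -0.35 with the floxed gene and between 0.12 and 0.26 without it. Their early levels were between 10.73 and 11.20 in MEFs and between 9.81 and 10.82 in iMEFs. The 2 sets that list H3f3b, also an H3.3 gene, with another symbol had early levels between 11.69 and 12.19 in all lines. The changes of these 2 sets were between -0.08 and -0.02 in MEFs and between -0.22 and -0.04 in iMEFs.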
